A study of Mus musculus with 6 samples.

Results

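The genes described here encode serpins, the protease inhibitors named for their serine protease targets, and 3 proteins of the cytotoxic granule. They were taken by name from the deposited expression table of mouse Th17 cultures, as 6 rows whose gene name starts with Serpin plus Gzmb, Prf1 and Nkg7, which makes 9 of 10041 rows. The genes were selected on their FPKM values in these same 6 libraries, whose difference between the groups was already known. The differences between the groups are therefore given as a description, without a p-value, for these 9 genes. Levels are in FPKM, a fragment count divided by transcript length and by a measure of library size. How the libraries were scaled is not stated in the sources used here. In every row of the table the group with the higher mean stood at 1.499 FPKM or above, and Prf1 (1.54) and Serpinb5 (1.64) lay just inside that limit. GENCODE M21 lists 61 protein-coding mouse genes whose names start with Serpin, and the others were not analysed here.

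All cultures started from naive CD4 T cells and were kept for 48 h on plates with anti-CD3e (10 µg/ml) and anti-CD28 (1 µg/ml). The cytokines IL-6 (20 ng/ml), TGFb1 (2.5 ng/ml) and IL-23 (10 ng/ml) were present in both groups. The 3 libraries called DMSO here received the vehicle alone, and the 3 oligomycin libraries received 2.5 ng/ml oligomycin, an inhibitor of the mitochondrial ATP synthase. The labels give no strain, age or sex and do not say whether the libraries of a group came from separate animals, so the errors measure the spread between these libraries, which may be technical. The comparison asks what blocking oxidative phosphorylation does to the Th17 transcriptome, here for these protease inhibitors and granule genes.

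Serpins trap a target protease by offering it an exposed loop as bait and changing shape once the loop is cut, which destroys inhibitor and enzyme together. Members of clade B stay inside the cell, where several of them guard against proteases that leak from granules or lysosomes, while Serpinf1 is secreted. Cytotoxic lymphocytes store granzyme B (Gzmb) and the pore-forming protein perforin (Prf1) in secretory granules, and Nkg7 is a granule membrane protein needed for their release. Helper T cells usually hold little of these granule proteins.

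The 3 granule genes did not move together, and the stretches upstream of their start sites are shown because each of them holds the letters of a RUNX motif. The 250 bases before the RefSeq start site (GRCm38.p6) are printed 5′ to 3′ on the gene's strand, together with those of Serpinf1, the only serpin called lower with oligomycin whose window held a match. Capitals mark matches on either strand to 5 motifs: RUNX (TGTGGT or ACCACA), AP-1 (TGANTCA), HIF (ACGTG or CACGT), SMAD (CAGACA or TGTCTG) and CRE (TGACGTCA). The motifs were chosen after these sequences had been seen.
Gzmb, chr14:56262335-56262584, minus strand: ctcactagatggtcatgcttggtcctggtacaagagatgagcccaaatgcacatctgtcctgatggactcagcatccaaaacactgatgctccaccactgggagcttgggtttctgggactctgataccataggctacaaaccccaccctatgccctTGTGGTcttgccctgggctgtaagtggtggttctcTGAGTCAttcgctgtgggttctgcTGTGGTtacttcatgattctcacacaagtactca
Prf1, chr10:61297586-61297835, plus strand: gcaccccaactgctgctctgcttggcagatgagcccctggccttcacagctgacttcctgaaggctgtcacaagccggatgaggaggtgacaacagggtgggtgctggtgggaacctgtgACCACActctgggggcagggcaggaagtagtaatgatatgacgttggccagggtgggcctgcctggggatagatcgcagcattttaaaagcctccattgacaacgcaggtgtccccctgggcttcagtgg
Nkg7, chr7:43436888-43437137, plus strand: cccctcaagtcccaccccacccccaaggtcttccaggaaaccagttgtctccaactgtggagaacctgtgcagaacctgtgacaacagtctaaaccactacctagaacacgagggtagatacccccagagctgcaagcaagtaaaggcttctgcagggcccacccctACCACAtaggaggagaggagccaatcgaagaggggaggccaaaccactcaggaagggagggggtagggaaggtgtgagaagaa
Serpinf1, chr11:75422624-75422873, minus strand: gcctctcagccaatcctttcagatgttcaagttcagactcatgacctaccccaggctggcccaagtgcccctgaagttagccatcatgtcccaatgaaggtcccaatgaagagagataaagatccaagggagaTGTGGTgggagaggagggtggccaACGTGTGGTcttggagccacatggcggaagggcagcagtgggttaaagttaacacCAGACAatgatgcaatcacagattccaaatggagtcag

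RefSeq windows were found for 8 of the 9 genes, all but Serpinb1a. The RUNX letters occurred in the windows of 5 of these 8 genes (Gzmb, Prf1, Nkg7, Serpinf1 and Serpinb5), and in 14.0% of the 32851 RefSeq windows of this length. In Gzmb they began at positions -93 and -34, with the AP-1 letters TGAGTCA at -58 between them, counted back from the start site. The AP-1 letters were found in 6.75% of all windows and in 2 of the 8 genes, Gzmb and Serpinb5. In Serpinf1 the RUNX letters began at -117 and -90, the latter overlapping HIF letters that began at -93, and SMAD letters began at -38. HIF and SMAD letters each occurred in 2 of the 8 genes (Serpinf1 and Serpinb5 in both cases), against 16.6% and 17.1% of all windows, and the CRE letters in 0 of 8, against 1.55%. The start site of RefSeq matched the end of the deposited locus for Prf1, Nkg7 and Serpinf1 and lay 74 bases upstream of it for Gzmb. Such matches describe the letters only and do not show that a factor binds there.

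Levels of the 9 genes in every library show which of them differed clearly between the groups. Of the 6 serpins, 3 were lower with oligomycin without overlap between the groups (Serpinf1, Serpinb1a and Serpinb6a), and 3 overlapped (Serpinb6b, Serpinb9 and Serpinb5). Among the granule genes Gzmb was lower and Nkg7 higher without overlap, and Prf1 overlapped. Groups that do not overlap occurred in 24.3% of all tested rows with oligomycin lower and in 23.1% with oligomycin higher, 47.3% in all. By the call rule applied to all 9986 tested rows (limma, adjusted p under 0.05) the same 4 genes counted as lower and Nkg7 as higher, a count given as a description only. Of all tested rows, 16.1% were called lower and 14.0% higher, 30.2% in all. Because the choice of genes used this contrast, and Serpinf1 passed the filter on low values through its high group alone, nothing is read from their share. The median log2 change was -0.74 over the 6 serpins, of which 3 overlapped, -0.41 over the 9 genes and -0.00 over all tested rows. For the same reasons these medians are a description only. In these bulk cultures fewer cells of a kind and less RNA per cell cannot be told apart.

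**Figure D1:**
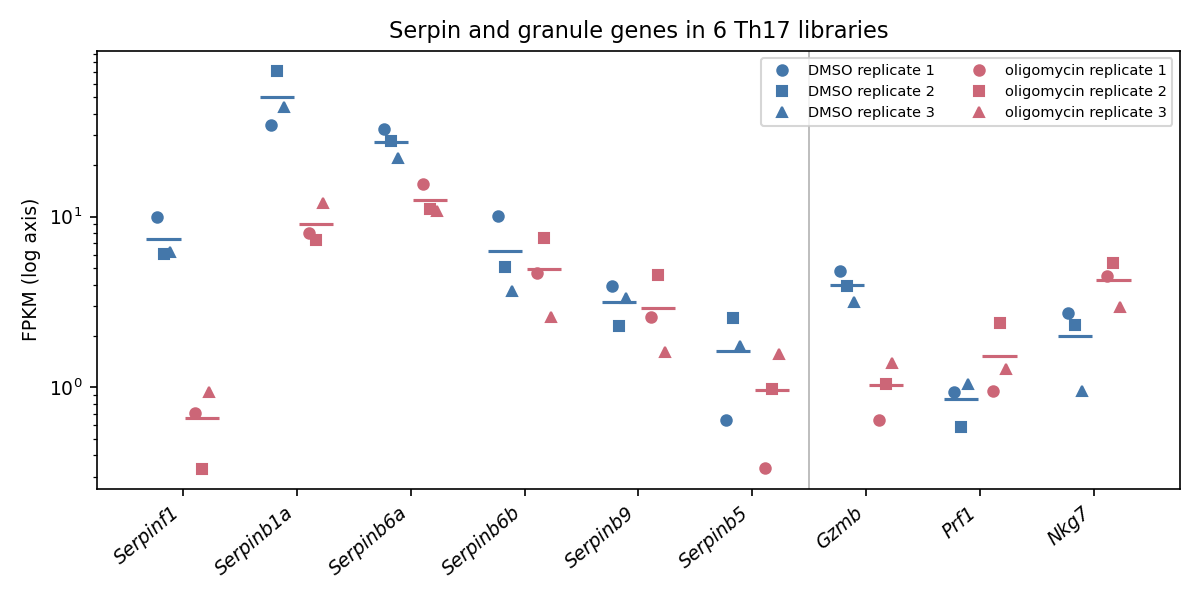
Level of each gene (FPKM, log axis) in the 3 DMSO libraries (blue) and the 3 oligomycin libraries (red), with symbols for the replicate number of the column and a bar at each group mean; serpins stand left of the line and granule genes right of it. Serpinf1, Serpinb1a, Serpinb6a and Gzmb have all red points below all blue points, and Nkg7 has them above.

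Serpinf1 encodes pigment epithelium-derived factor, a secreted serpin that restrains blood vessel growth and does not inhibit proteases. Its row (XLOC_003612, chromosome 11, 75410029 to 75422623, minus strand) stood at 9.93, 6.07 and 6.25 FPKM with DMSO and at 0.712, 0.334 and 0.945 FPKM with oligomycin. No oligomycin library reached 1 FPKM. The mean went from 7.42 ± 2.18 to 0.664 ± 0.308 FPKM, which is 11.2-fold lower (log2 change -2.33, SE 0.22, and -3.35 with a pseudocount of 0.1). Its ratio of group means was the largest among the 9 genes. It passed the filter on low values through its DMSO libraries alone, and without any 1 of those libraries it was not tested.

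Serpinb1a and Serpinb6a had the highest means of the 6 serpins in both groups, although Serpinb6b exceeded Serpinb1a in oligomycin replicate 2. Serpinb1a, an intracellular inhibitor of elastase-like and chymotrypsin-like granule proteases such as neutrophil elastase and cathepsin G, lies in XLOC_005422 (chromosome 13, 32842092 to 32851185, minus strand). It stood at 34.6, 71.6 and 43.6 FPKM with DMSO and at 8.05, 7.31 and 12.0 FPKM with oligomycin. The highest oligomycin library was still well below the lowest DMSO library, although DMSO replicate 2 stood far above the other DMSO libraries. The mean fell from 49.96 ± 19.3 to 9.10 ± 2.49 FPKM, 5.49-fold lower (log2 change -2.30, SE 0.27). With DMSO the gene stood above 82.3% of the rows and with oligomycin above 35.8%.

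Serpinb6a, an inhibitor of trypsin-like and chymotrypsin-like proteases in the cytosol, was read in XLOC_005427 (chromosome 13, 33917918 to 34002794, minus strand). It stood at 32.6, 27.8 and 22.0 FPKM with DMSO and at 15.6, 11.0 and 10.9 FPKM with oligomycin. The groups were apart, but by less than for Serpinf1 and Serpinb1a. The mean went from 27.4 ± 5.34 to 12.5 ± 2.69 FPKM, 2.195-fold lower (log2 change -1.08, SE 0.18). Of its annotated exonic bases 29.3% are also exonic in genes on the opposite strand (1110046J04Rik, Nqo2 and Ripk1), and the strand of the libraries is not given in the sources used here, so its reads and theirs may not be separable. Nqo2, whose row has the same locus, stood lower too, at 1.59 ± 0.114 and 0.685 ± 0.266 FPKM (log2 change -0.63), far below the level of Serpinb6a. No oligomycin library of Nqo2 reached 1 FPKM. The row passed the filter on low values through its DMSO libraries alone, so its change is only described.

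The sum of the 6 serpin rows was 91.8, 115 and 80.6 FPKM with DMSO and 31.96, 31.7 and 29.5 FPKM with oligomycin. Serpinb1a alone made up 37.7%, 62.1% and 54.1% of that sum with DMSO and 25.2%, 23.0% and 40.5% with oligomycin. The sum was lower in every oligomycin library than in every DMSO library, while the shares overlapped between oligomycin replicate 3 and DMSO replicate 1. Serpinb6a stood above Serpinb1a in 2 of 3 oligomycin libraries. The ratio of Serpinb1a to Serpinb6a within a library was 1.06, 2.58 and 1.99 with DMSO and 0.516, 0.662 and 1.1 with oligomycin, with overlap between DMSO replicate 1 and oligomycin replicate 3.

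The other clade B serpins on chromosome 13 did not separate the groups. Serpinb9, the inhibitor of granzyme B that protects cytotoxic cells from their own granules (XLOC_005002, 33004541 to 33017955, plus strand), stood at 3.91, 2.30 and 3.33 FPKM with DMSO and at 2.60, 4.57 and 1.61 FPKM with oligomycin. Its means were 3.18 ± 0.816 and 2.93 ± 1.51 FPKM, and the 95% interval of the log2 change of -0.14 ran from -0.78 to 0.50. Serpinb6b, a close relative of Serpinb6a (XLOC_005001, 32965513 to 32979037, plus strand), stood at 10.0, 5.06 and 3.69 FPKM with DMSO and at 4.66, 7.502 and 2.59 FPKM with oligomycin. Its means were 6.26 ± 3.34 and 4.92 ± 2.46 FPKM, and the interval of the log2 change of -0.29 ran from -1.13 to 0.55. Intervals this wide leave room for a fall or a rise of some size in both genes. In both, oligomycin replicate 2 was the highest and oligomycin replicate 3 the lowest oligomycin library. The change of Serpinb6b turned to 0.063 without DMSO replicate 1 and to 0.029 without oligomycin replicate 3, and that of Serpinb9 to 0.12 without oligomycin replicate 3.

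Serpinb5, which encodes maspin, a clade B serpin that does not inhibit proteases, was near the lower limit of the table (XLOC_000322, chromosome 1, 106861180 to 106883348, plus strand). It stood at 0.643, 2.54 and 1.75 FPKM with DMSO and at 0.337, 0.985 and 1.57 FPKM with oligomycin. The groups overlapped, with means of 1.64 ± 0.953 and 0.964 ± 0.617 FPKM (log2 change -0.41, interval -1.17 to 0.35). In both groups the column numbered 1 was the lowest.

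The 4 genes on chromosome 13 lie in 1 cluster, among 15 protein-coding serpin genes that GENCODE places between Serpinb1a and Serpinb6a, a stretch of 1161 kilobases. Serpinb6b and Serpinb9, 25.5 kilobases apart, had overlapping groups, while Serpinb1a, 114 kilobases from Serpinb6b, and Serpinb6a at the far end were lower with oligomycin. Genes of the cluster are copies of one another, so shared sequence was counted. Of the stretches of 50 bases in each gene's GENCODE transcripts, 2.92% for Serpinb6b, 2.81% for Serpinb1a, 0.751% for Serpinb6a and 0.378% for Serpinb9 occurred in a transcript of another gene. The partners that shared most were Serpinb6c, Serpinb1c, Serpinb6c and Serpinb9b, in that order. The share was 0 for the remaining 5 of the 9 genes. How reads with several matches were handled is not given in the sources used here, and these 4 values carry that uncertainty for a small part of each transcript.

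**Figure D2:**
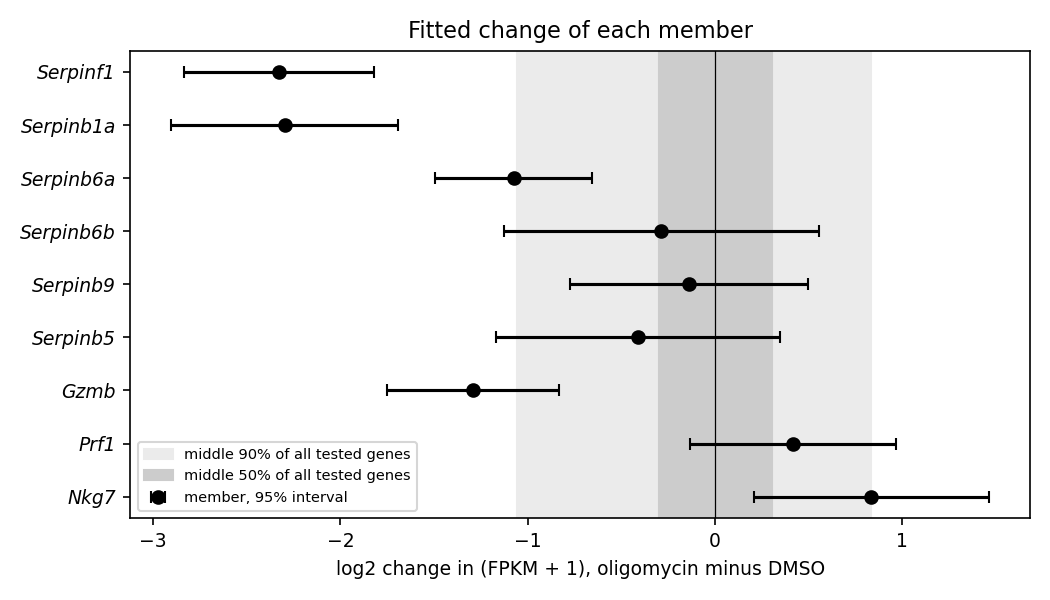
Fitted log2 change in (FPKM + 1), oligomycin minus DMSO, for each gene (point) with its 95% interval (bar), over bands that hold the middle 50% (dark grey) and 90% (light grey) of the changes of all tested rows. Serpinf1 and Serpinb1a lie wholly left of both bands, while the intervals of Serpinb6b, Serpinb9, Serpinb5 and Prf1 cross 0.

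The granule genes were rare transcripts in these helper T cells, and their differences pointed in opposite directions. Gzmb (XLOC_006416, chromosome 14, 56258858 to 56262260, minus strand) stood at 4.79, 3.92 and 3.17 FPKM with DMSO and at 0.646, 1.05 and 1.39 FPKM with oligomycin. Every oligomycin library was below every DMSO library. Its mean went from 3.96 ± 0.810 to 1.03 ± 0.374 FPKM, 3.85-fold lower, and from above 17.5% of the rows to above 1.66% of them. The fitted log2 change was -1.29 (SE 0.20, interval -1.75 to -0.84), and -1.88 with a pseudocount of 0.1.

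Nkg7 (XLOC_017939, chromosome 7, 43437138 to 43438246, plus strand) stood at 2.73, 2.34 and 0.952 FPKM with DMSO and at 4.52, 5.33 and 2.94 FPKM with oligomycin. The groups did not overlap, but the highest DMSO and the lowest oligomycin library were close. Its mean went from 2.01 ± 0.934 to 4.26 ± 1.21 FPKM, 2.12-fold higher (log2 change 0.83, SE 0.28, interval 0.21 to 1.46). The call of Nkg7 sat at the edge of the threshold and was lost under 8 of 13 alternatives in which the gene was tested. Those included leaving out DMSO replicate 2 or 3 (log2 changes of 0.94 and 0.55) or oligomycin replicate 1 or 2 (0.79 and 0.69), and its change was above 0 under all 13.

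Prf1 (XLOC_001451, chromosome 10, 61297836 to 61304263, plus strand) stood at 0.944, 0.585 and 1.04 FPKM with DMSO and at 0.951, 2.38 and 1.28 FPKM with oligomycin. The lowest oligomycin library fell within the DMSO range. Its means were 0.858 ± 0.242 and 1.54 ± 0.749 FPKM (log2 change 0.42, SE 0.24, interval -0.13 to 0.97), and it was not called.

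Ratios between genes within a library do not depend on how libraries were scaled against each other. The ratio of Gzmb to Nkg7 was 1.75, 1.68 and 3.33 with DMSO and 0.143, 0.196 and 0.474 with oligomycin. More Gzmb than Nkg7 per length of transcript was thus found in every DMSO library and less in every oligomycin library. Because Gzmb was lower and Nkg7 higher without overlap, the separation of this ratio follows from those values. Each ratio with Gzmb in it restates in part the lower level of Gzmb and is given as a description. The ratio of Gzmb to Prf1 was 5.07, 6.71 and 3.03 with DMSO and 0.679, 0.439 and 1.09 with oligomycin, again without overlap. The ratio of Serpinb6a to Serpinb6b, in contrast, overlapped between the groups, with 3.25, 5.48 and 5.94 with DMSO and 3.35, 1.47 and 4.19 with oligomycin. Serpinb9 relative to its target protease Gzmb stood at 0.817, 0.586 and 1.05 with DMSO and at 4.03, 4.37 and 1.16 with oligomycin. This ratio was higher in each oligomycin library than in each DMSO library, although oligomycin replicate 3 exceeded DMSO replicate 3 only slightly.

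**Figure D3:**
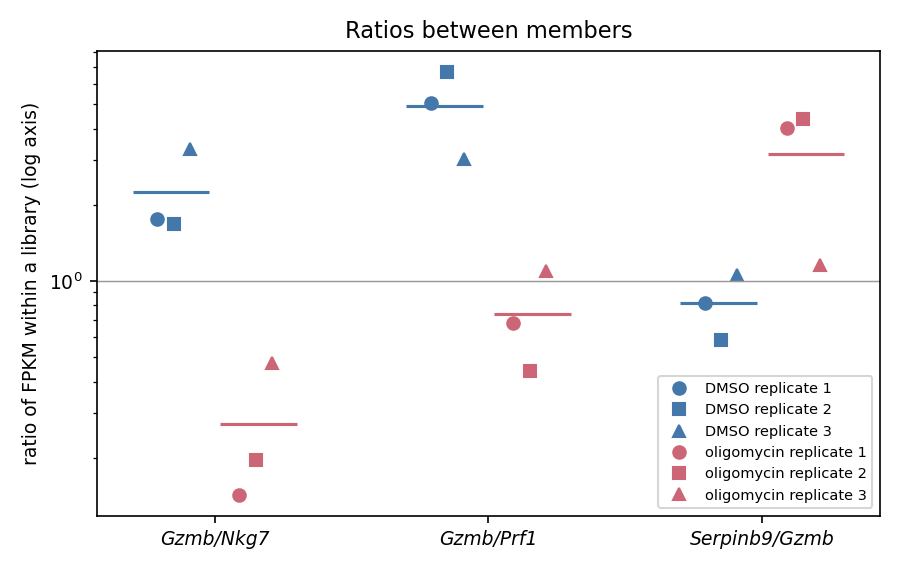
Ratio of the FPKM of 2 genes within a library (log axis) for Gzmb over Nkg7, Gzmb over Prf1 and Serpinb9 over Gzmb, with DMSO libraries in blue, oligomycin libraries in red, symbols for the replicate number and bars at the group means. The mean ratio of Gzmb to Nkg7 was 2.25 ± 0.932 with DMSO and 0.271 ± 0.178 with oligomycin, and that of Serpinb9 to Gzmb was 0.818 ± 0.233 and 3.19 ± 1.77.

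Granule genes are also expressed by CD8 T cells and NK cells, so their markers were read beside Gzmb and Nkg7. Of 9 NK cell markers 1 had a row, Klre1, which stood between 1.18 and 2.03 FPKM in the DMSO libraries and between 0 and 0.469 with oligomycin, listed at 0 in oligomycin replicate 3. Its log2 change of -1.10 is given as a description, since Klre1 passed the filter on low values through its DMSO libraries alone. Without any 1 of those libraries it was not tested. Of 2 CD8 T cell markers 1 had a row, Cd8b1, with 2.63 to 3.12 FPKM in the DMSO libraries and 2.41 to 3.30 with oligomycin. Klre1 thus moved in the direction of Gzmb and against that of Nkg7, and its part in either difference was not tested. The 7 T cell markers all had rows and summed to 853 to 1002 FPKM with DMSO and 799 to 948 with oligomycin. Of these 7, Thy1 and Cd28 were called lower (log2 changes of -0.97 and -0.53, adjusted p = 0.0293 and 0.0422 in limma) and 5 were not called. The 6 Th17 markers all had rows too and summed to 1759 to 2043 and 318 to 499 FPKM. The labelled cell type was thus borne out by its markers in the DMSO cultures and, at lower levels, with oligomycin. Of 8 myeloid markers 1 had a row, Cd68, at 1.08 to 2.07 FPKM with DMSO and 2.39 to 5.07 with oligomycin. The markers of B cells (4), mast cells and basophils (5), platelets (4) and fibroblasts (4) had 0 rows and were not analysed here.

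Beyond Gzmb, Prf1 and Nkg7, 46 genes of the cytotoxic programme and of granule release were listed, of which 31 had rows and were tested. Of these 3 rose (Ctsw, Lamp1 and Ifng), 5 fell (Cst7, Crtam, Klrc1, Stx11 and Runx3) and 23 were not called, shares of the same order as the 14.0% and 16.1% of all tested rows. Their median log2 change was 0.03. The number called was 4 without DMSO replicate 1 and 3 without DMSO replicate 3. Over all tested rows it was 1887 of 9888 and 1769 of 9883 there, against 3013 of 9986 with all 6 libraries. Without oligomycin replicate 1, 2 or 3 the list had 5 called each time, and all rows 3248, 2424 and 2052.

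Among granule contents, Ctsw, which encodes the lymphocyte protease cathepsin W, rose from 81.4 ± 41.5 to 155 ± 36.0 FPKM (log2 change 1.02, adjusted p = 0.0482 in limma). Cst7, which encodes cystatin F, an inhibitor of granule cathepsins, fell from 21.1 ± 7.97 to 12.0 ± 1.74 FPKM (log2 change -0.72, adjusted p = 0.0481). Both calls were fragile. Leaving out DMSO replicate 1 gave log2 changes of 0.66 for Ctsw and -0.44 for Cst7, and leaving out DMSO replicate 3 gave 1.00 and -0.79, with neither gene called. The same held without each oligomycin library in turn (1.12, 0.84 and 1.11 for Ctsw, and -0.78, -0.77 and -0.60 for Cst7). Both calls were also lost with a pseudocount of 0.1 (1.03 and -0.76), without a filter and without an intensity trend, that of Ctsw at a minimum of 5 FPKM, and that of Cst7 with quantile normalization (-0.71) and with rescaling without small RNA rows (-0.61). Srgn, which encodes serglycin, the proteoglycan that packs granzymes, stood at 733 ± 225 and 512 ± 141 FPKM (adjusted p = 0.165). Ctsc, the cathepsin that activates granzymes, stood at 67.8 ± 8.54 and 76.5 ± 13.5 FPKM (adjusted p = 0.444). The gene of the packing matrix was thus far more abundant than Gzmb itself in both groups.

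Of 14 tested genes of the granule membrane and its release, 1 rose, 1 fell and 12 were not called. Of all tested rows, 14.0% were called higher and 16.1% lower. Stx11, which encodes syntaxin 11, a membrane fusion protein required for granule release by cytotoxic cells, fell from 73.3 ± 4.27 to 36.1 ± 4.69 FPKM (log2 change -1.01, SE 0.13, adjusted p = 0.000857 in limma). Lamp1, a major protein of lysosome and granule membranes, rose from 77.7 ± 7.29 to 106.6 ± 9.81 FPKM (log2 change 0.45, adjusted p = 0.0286). Lamp1 was not called without DMSO replicate 1 or 3 (log2 changes of 0.37 and 0.47) or without oligomycin replicate 1 or 2 (0.40 and 0.43). Lyst, a regulator of lysosome size, and Sytl1, a Rab27 effector, had adjusted p of 0.0593 and 0.0743 (log2 changes of 0.49 and -0.62). Rab27a, the GTPase that docks granules, stood at 37.9 ± 4.37 and 38.1 ± 2.21 FPKM (log2 change 0.01, SE 0.12).

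Of 4 tested receptors and death ligands of cytotoxic cells 2 fell and the other 2 were not called, where 16.1% of all tested rows were called lower. Klrc1, which encodes the inhibitory NK receptor NKG2A, fell from 7.85 ± 4.86 to 1.42 ± 1.05 FPKM (log2 change -1.78, adjusted p = 0.0185 in limma), a call lost without DMSO replicate 2 (-1.38) or DMSO replicate 3 (-1.69). Crtam, an adhesion receptor of activated cytotoxic cells, fell from 2.58 ± 0.417 to 1.25 ± 0.145 FPKM (log2 change -0.67, adjusted p = 0.0174). Without oligomycin replicate 3 (-0.65), or without DMSO replicate 2 (-0.68) or 3 (-0.58), Crtam was not called. Klrd1 (CD94), the partner of NKG2A, stood at 26.2 ± 11.8 and 16.3 ± 9.56 FPKM (log2 change -0.75, SE 0.52, not called), and Fasl, the ligand of the death receptor Fas, at 2.07 ± 1.19 and 2.03 ± 0.739 (adjusted p = 0.946). The log2 change of Fasl, 0.03, turned to -0.29 without DMSO replicate 3 and to -0.15 without oligomycin replicate 2.

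Of the transcription factors of cytotoxic cells, 1 of 4 tested fell, where 16.1% of all tested rows were called lower. Runx3, which drives the cytotoxic programme in CD8 T cells, stood at 7.73 ± 0.874 and 3.49 ± 0.534 FPKM (adjusted p = 0.00212 in limma). Tbx21, which encodes T-bet, stood at 2.09 ± 0.254 and 1.56 ± 0.406 FPKM (adjusted p = 0.271). Id2 (log2 change 0.24) and Hopx (0.10) were not called, and Hopx turned to -0.10 without DMSO replicate 2. Of the 5 cytokine genes of cytotoxic cells only Ifng was called (log2 change 1.47), where 14.0% of all tested rows were called higher. Its mean was 0.656 ± 0.350 FPKM with DMSO and 4.05 ± 2.60 with oligomycin. With DMSO only replicate 2 reached 1 FPKM (1.03). Ifng thus met the filter on low values mainly through its oligomycin libraries, and its call is given as a description. The call was lost without DMSO replicate 1 or 3 (1.46 and 1.32) and without oligomycin replicate 1 or 2 (1.35 and 1.11). Xcl1, Ccl3 and Ccl5 had log2 changes of 1.60, 0.87 and 0.57 and were not called (adjusted p = 0.236 in limma for Ccl3). With DMSO, Xcl1 reached 1 FPKM in replicate 3 alone and Ccl5 in replicate 2 alone. The changes of Xcl1 and Ccl5 are therefore only described.

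Proteases that serpins are known to meet and inhibitors of other families were counted in the same way. Of 12 tested proteases and receptors of proteases 1 rose and 4 fell, where 14.0% of all tested rows were called higher and 16.1% lower. Casp8, an initiator caspase, and Ctsl, the lysosomal protease cathepsin L, fell with log2 changes of -0.53 and -0.59 (adjusted p = 0.0149 and 0.0139 in limma). The calls were lost without DMSO replicate 2 for both (-0.49 for Casp8 and -0.48 for Ctsl) and without oligomycin replicate 3 for Casp8 (-0.49). Ctss, the lysosomal protease cathepsin S, rose from 38.5 ± 3.20 to 68.7 ± 16.7 FPKM (log2 change 0.79, adjusted p = 0.0119). Plaur, which encodes the receptor of urokinase, fell from 9.51 ± 5.86 to 2.94 ± 1.22 FPKM (log2 change -1.31, adjusted p = 0.0362), a call lost without DMSO replicate 1 or 2 (-0.89 and -1.33) and without oligomycin replicate 2 or 3 (-1.37 and -1.05). The remaining gene that fell was Ctsz, which encodes the lysosomal protease cathepsin Z (log2 change -0.47, adjusted p = 0.0468). The call of Ctsz was lost without each DMSO library in turn (-0.48, -0.42 and -0.50) and without oligomycin replicate 2 (-0.41) and replicate 3 (-0.37). It was lost too with quantile normalization (-0.30), with rescaling without small RNA rows (-0.35) and without an intensity trend (adjusted p = 0.0551 in limma).

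Among 6 tested inhibitors of other families 2 rose and 1 fell, against the same shares of all rows (14.0% and 16.1%). Timp1, a secreted inhibitor of matrix metalloproteases, fell from 264 ± 70.5 to 84.7 ± 19.6 FPKM (log2 change -1.62, SE 0.23, adjusted p = 0.00149 in limma). Its relative Timp2 rose from 11.0 ± 1.49 to 16.2 ± 0.904 FPKM (log2 change 0.53, adjusted p = 0.0157), a call lost without DMSO replicate 1 (0.43). Spint2, a membrane inhibitor of trypsin-like proteases, rose from 35.9 ± 2.72 to 49.8 ± 4.42 FPKM (log2 change 0.46, adjusted p = 0.0202), a call lost without DMSO replicate 3 (0.40). Cst3 (cystatin C) was not called (log2 change -0.38, adjusted p = 0.123). Over the 18 proteases and inhibitors together 3 rose and 5 fell. The number called was 5 without DMSO replicate 1, 4 without DMSO replicate 2 and 5 without oligomycin replicate 3. Over all tested rows it was 1887 of 9888, 2022 of 9878 and 2052 of 9894, in the same order. Partners of the collagen chaperone Serpinh1, which has no row itself, were called lower for 6 of 12 tested genes and not called for the other 6 (16.1% of all tested rows were called lower), with P4ha2 (log2 change -1.84), Plod2 (-1.38), Kdelr2 (-0.55) and P4hb (-0.48) at the smallest p. The call of P4hb was lost without DMSO replicate 1, 2 or 3 (log2 changes of -0.53, -0.40 and -0.52) and without oligomycin replicate 2 or 3 (-0.40 and -0.47), and also with quantile normalization (-0.28) and with rescaling (-0.37). The 2 further genes of the 6, P4ha1 (log2 change -0.74) and Pdia3 (-0.54), lost their calls under 7 and 9 of 14 alternatives.

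The genes with the profile nearest to that of Gzmb were sought among 8265 tested rows whose higher group averaged 5 FPKM or more. Likeness was the mean absolute difference over the 6 libraries between log2(FPKM + 1) values centred on each gene's own mean. Nearest to Gzmb were Idh1 (0.0976), Ttc39c (0.0996), Gla (0.107), Ly6c1 (0.112) and Lxn (0.113). Idh1, the cytosolic isocitrate dehydrogenase, stood at 9.94, 8.49 and 8.65 FPKM with DMSO and 1.83, 2.97 and 3.25 with oligomycin. Lxn encodes latexin, which inhibits carboxypeptidases. These are genes of like difference between the groups, which dominates this measure.

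The depth behind the FPKM values is unknown, so no counting interval can be given. FPKM summed to between 1434028 and 2103404 per library, and the median over all rows ran from 13.8 to 14.7 FPKM. Rows that name a small RNA took 70.8%, 77.8% and 77.5% of the sum with DMSO and 80.6%, 82.0% and 80.1% with oligomycin. Their share was thus higher in every oligomycin library than in every DMSO library. Rescaling without these rows is among the alternatives. Pearson correlations of log2(FPKM + 1) across tested rows, which are not independent replicates, were 0.963 to 0.969 within DMSO, 0.940 to 0.962 within oligomycin and 0.890 to 0.937 between the groups.

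The changes of the 9 genes were recomputed under 14 alternatives in filtering, scaling, pseudocount and libraries used. Serpinf1 ranged from -3.35 to -2.18, Serpinb1a from -2.52 to -2.01, Serpinb6a from -1.23 to -0.95 and Gzmb from -1.88 to -1.15. These ranges describe values that chose the genes, and Serpinf1 could not be tested without any 1 of the DMSO libraries. Of the 9 genes, 3 of 4 tested were called at a minimum of 5 FPKM, where 2458 of all 8028 tested rows were called. The number was 3 of 7 tested without DMSO replicate 2, against 2022 of 9878 rows. It was 3 of 6 tested without DMSO replicate 3, against 1769 of 9883 rows.

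**Figure D4:**
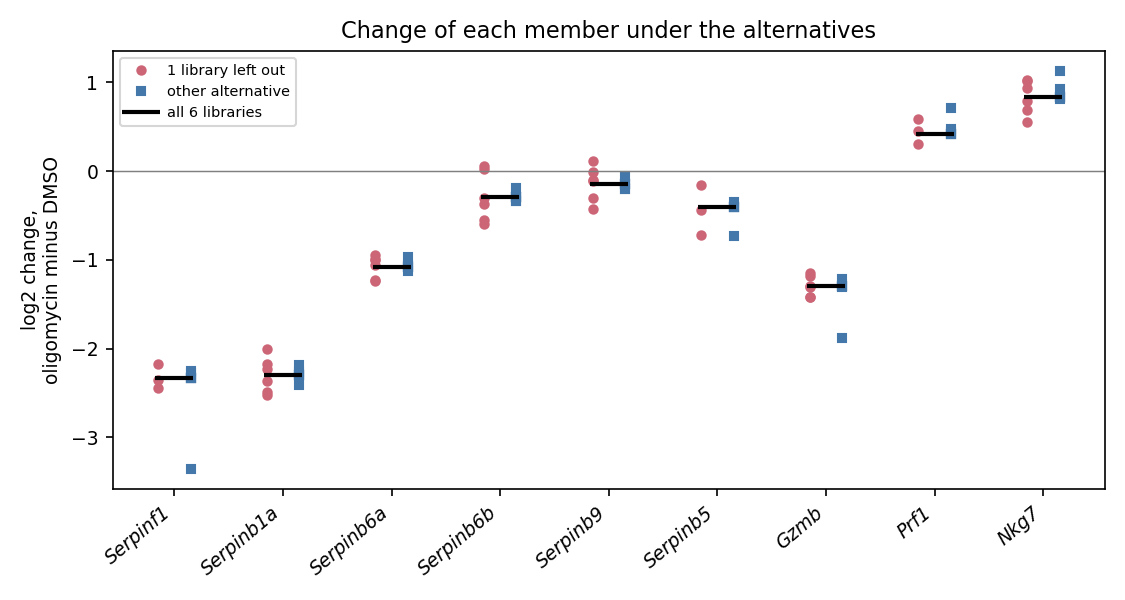
Log2 change of each gene, oligomycin minus DMSO, with all 6 libraries (black bar), with 1 library left out (red circles) and under the other alternatives (blue squares). Where tested, Serpinf1, Serpinb1a, Serpinb6a and Gzmb stay below 0 and Nkg7 and Prf1 above it, while Serpinb6b and Serpinb9 reach both sides. An alternative under which a gene was not tested has no point, 4 of 14 each for Prf1 and Serpinb5.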

How the data were processed

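RNA-seq values of 6 mouse Th17 libraries were used. Per the submitters' processing notes, GRCm38 was used with TopHat2 2.1.0, Cuffdiff 2.2.1.3, Cuffnorm 2.2.1.1 and Cufflinks 2.2.1.0. The deposited values are FPKM made by the authors, 1 per row and library. The sources used here do not state the library strand, annotation or scaling. Columns named Vehicle or Oligo were mapped to groups only, since the title numbers (17, 42 and 43 in both groups) are on no column, and replicate numbers are those of the columns. Starts are printed with 1 added, which matched GENCODE M21 for 2387 genes against 327 without.

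The test was that of limma 3.58.1 in R 4.3.3, run on log2(FPKM + 1) (intensity trend, group alone, 2-sided, Benjamini-Hochberg over all rows tested, adjusted p under 0.05). A fold change on that scale understates the change of low genes. Rows needed at least 1 FPKM in at least 3 of 6 libraries, which 9986 of 10041 rows and all 9 genes met. The procedure was tested on simulated data, with changes put into a small part of the rows and none into low rows. That test therefore does not cover genes as low as Gzmb, Prf1 and Nkg7. The 9 genes and all lists were chosen with earlier results of these data known. Of each other list the text names the 4 genes with the smallest p, plus those needed for counts of 5 or fewer, and the 5 genes nearest in profile to Gzmb. Rab27a, Nqo2 and the markers Klre1, Cd8b1, Cd68, Thy1 and Cd28 were named after their values were seen. A row that the naming rule also takes, and a gene of 1 list, stayed in the fits and are not reported here.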

Additional observations from a re-analysis of the deposited data

How the results depend on the processing

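Alternatives were a pseudocount of 0.1, quantile normalization, a minimum of 5 FPKM, no filter, rescaling without small RNA rows, no intensity trend, no rows of several genes or a shared locus, a replicate block and each library left out. With 1 library left out, the number of rows called ran from 1769 to 3248 (3013 with all), of the 9 genes from 3 to 5 (5), of the cytotoxic list from 3 to 6 (8) and of proteases and inhibitors from 4 to 10 (8). A minimum of 5 FPKM left 4 of the cytotoxic list called among 22 tested, and 3 of the 9 genes among 4 tested. Of all rows, 2458 of 8028 tested were called at that minimum. Rescaling gave 1926 rows higher and 1270 lower, against 1403 and 1610, and moved the median change of all rows to 0.10. Of 111 values of the 9 genes under alternatives, 100 kept direction and call, 8 lost a call (all Nkg7, log2 changes of 0.55 to 1.13) and 3 turned: Serpinb6b (0.063 and 0.029, range -0.59 to 0.063) and Serpinb9 (0.12, range -0.43 to 0.12). Alternatives under which a gene was not tested give no value and are not among the 111. They were 4 of 14 each for Prf1 and Serpinb5, 3 for Serpinf1, and 1 each for Gzmb, Nkg7, Serpinb6a and Serpinb9. Of 489 values of 36 other genes, 406 kept both, 72 lost a call, 8 gained one and 3 turned: Fasl (-0.29 and -0.15, range -0.29 to 0.31) and Hopx (-0.10, range -0.10 to 0.21). The cause of these changes was not tested. The replicate block by column number gave 3532 calls and 5 of the 9 genes, and added Klrd1 (adjusted p = 0.0076 in limma), Srgn (0.0322) and Cst3 (0.0457). Deviations of libraries with the same number correlated at 0.056, 0.247 and 0.132. Each DMSO library correlated best with its own number, but oligomycin replicate 1 correlated best with DMSO replicate 3 (0.117). Whether the column numbers pair the libraries could not be settled, and the main fit used no pairing.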
